A study of Mus musculus with 3 samples.

Results

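The genes described here are 42 genes of microglia and other brain macrophages, chosen by gene name from the 54532 genes of the expression table. They comprised genes of microglia identity, complement, phagocytosis and border macrophages, and all 42 were found. RNA was sequenced from the prelimbic cortex (PrL) of male C57BL/6J mice, aged 6 to 8 weeks when purchased, with 1 library in each of 3 groups. The CUMS vehicle group carried rAAV-hSyn-bGH-polyA-CMV-EGFP, the CUMS oe-circ group carried rAAV-hSyn-circFKBP8-bGH-polyA-CMV-EGFP for the circular RNA circFKBP8(5S,6), and the CUMS oe-pep group carried, behind the same hSyn promoter, peptide-3×Flag-P2A-EGFP-hGH-polyA for the encoded protein cFKBP8. All viruses were recombinant AAV of the AAV/9 type and were injected into both hemispheres 2 weeks before stress began. Every group then went through 5 weeks of chronic unpredictable mild stress (CUMS), so that no library came from unstressed or uninjected mice. The hSyn promoter restricts the transgene to neurons, whereas EGFP was under the CMV promoter in the vehicle and oe-circ vectors and in the hSyn transcript in the oe-pep vector. The number of mice behind a library is not given in the sources used here, and expression of the transgenes was not analysed here.

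Microglia are the resident macrophages of the brain parenchyma. They depend on signals through the receptor Csf1r, sense neurons through Cx3cr1 and purine receptors, produce the C1q proteins that start the classical complement pathway, and clear debris and synaptic material through receptors such as Trem2, Mertk and the Fc receptors. A separate population, the border macrophages of the meninges and perivascular spaces, is marked by Mrc1, Cd163, Pf4 and Lyz2, of which Lyz2 is also made by monocytes and neutrophils.

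All 42 genes had reads in each library, and the defining microglia markers were present throughout. The libraries held 18084058 (vehicle), 14413544 (oe-circ) and 16410635 (oe-pep) reads in genes, of which the 42 genes took 0.216%, 0.193% and 0.213%. These were 39117, 27824 and 34908 reads. Without Cst3, Ctsd, Mertk and Itgb5, which other brain cells also make, they were 15568, 11316 and 13334 reads. FPKM, the reads of a gene scaled to its length and to the reads of the library, is the level used throughout, and values of a gene are always given in the order vehicle, oe-circ, oe-pep. With 1 library per group there was no replicate check and no test between groups, and the 95% intervals given for ratios cover counting error only. In PrL tissue as a whole, fewer cells of a type and less RNA per cell cannot be told apart. The libraries also differed in markers of other cells. Summed over 9 markers each, striatal neuron markers were at 586, 200 and 490 FPKM and oligodendrocyte markers at 963, 819 and 1432 FPKM. The part of these differences in the values of the 42 genes was not tested.

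Promoter sequences are shown for the C1q genes C1qb and C1qc and for the 4 border macrophage genes, the first pair because C1qb and C1qc are neighbours whose levels in oe-circ differed from vehicle to unequal extents, and the others because they form the role group with the lowest medians. They are bases upstream of the annotated gene from the RefSeq promoters of build GRCm38.p6, 5′ to 3′ on the strand of the gene. C1qb lies at chr4:136886201-136886450 (minus strand), C1qc at chr4:136893066-136893164 (minus strand), Pf4 at chr5:90772185-90772434 (plus strand), Mrc1 at chr2:14229164-14229391 (plus strand), Cd163 at chr6:124304401-124304650 (plus strand) and Lyz2 at chr10:117282322-117282522 (minus strand). Capitals mark matches on either strand to GAGGAA, a purine-rich motif of the kind bound by PU.1, the protein of the member gene Spi1, or to its longer form GAGGAAGT.
C1qb: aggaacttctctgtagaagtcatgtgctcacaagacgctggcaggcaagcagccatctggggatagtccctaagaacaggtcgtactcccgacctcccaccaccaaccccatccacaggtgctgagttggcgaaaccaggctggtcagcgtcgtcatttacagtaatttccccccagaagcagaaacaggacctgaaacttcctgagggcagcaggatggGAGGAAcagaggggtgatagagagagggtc
C1qc: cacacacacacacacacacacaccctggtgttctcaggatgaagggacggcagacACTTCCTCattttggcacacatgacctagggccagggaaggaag
Pf4: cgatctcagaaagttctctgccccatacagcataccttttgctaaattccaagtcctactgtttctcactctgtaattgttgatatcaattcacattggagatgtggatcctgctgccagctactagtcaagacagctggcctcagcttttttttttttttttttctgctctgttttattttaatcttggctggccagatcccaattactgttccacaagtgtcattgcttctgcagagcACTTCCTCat
Mrc1: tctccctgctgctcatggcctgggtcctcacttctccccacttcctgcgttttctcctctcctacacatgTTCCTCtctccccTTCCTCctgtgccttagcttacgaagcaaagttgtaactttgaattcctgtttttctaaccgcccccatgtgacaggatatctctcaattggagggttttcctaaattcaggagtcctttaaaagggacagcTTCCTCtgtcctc
Cd163: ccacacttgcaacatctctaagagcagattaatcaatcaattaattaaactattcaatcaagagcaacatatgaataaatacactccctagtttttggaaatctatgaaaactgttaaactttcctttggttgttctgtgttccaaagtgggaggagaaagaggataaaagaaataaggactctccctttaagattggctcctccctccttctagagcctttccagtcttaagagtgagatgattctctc
Lyz2: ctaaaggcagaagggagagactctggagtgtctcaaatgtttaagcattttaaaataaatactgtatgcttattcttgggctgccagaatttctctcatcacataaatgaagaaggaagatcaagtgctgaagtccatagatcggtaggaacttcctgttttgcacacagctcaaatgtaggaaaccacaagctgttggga

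C1qc and Pf4 held GAGGAAGT on the opposite strand, C1qb held GAGGAA, and Mrc1 held GAGGAA at 3 places. The windows of Cd163 and Lyz2 held neither. A RefSeq promoter was found for 33 of the 42 genes, and in the 250 bases before the start, both strands searched, 17 of the 33 (51.5%) held GAGGAA, beside 25.9% of 27025 genes. GAGGAAGT, which contains GAGGAA, was in 3 of the 33 (9.09%), namely C1qc, Inpp5d and Pf4, beside 2.79% of all genes. These are matches of letters only.

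In the CUMS oe-circ library, most of the 42 genes lay slightly below the CUMS vehicle library, and only Pf4 differed by more than 2-fold. On the scale of log2(FPKM + 0.1), the median of the 42 was -0.13, beside -0.00 over the 20203 genes that averaged 0.1 FPKM or more, and 36 of 42 were below 0, beside 10233 of 20203. More than 2-fold higher were 0 of 42 (3.50% of all 20203 genes) and more than 2-fold lower was 1 of 42 (6.42% of all genes). Among genes averaging 20 reads or more, 0 of 41 members were past 2-fold in either direction, beside 48 higher and 151 lower of 14551 genes. Large differences were thus not more frequent here than among all genes, and were rare in both at that depth. Smaller differences were counted among the 41 members that averaged 20 reads or more, 9 of which were lower by more than 20% (22.0%, beside 10.5% of 14551 genes of such depth) and 2 higher by more than 25% (4.88%, beside 7.94%). The counting interval of the ratio lay below 1 for 10 of these 41 (24.4%, beside 15.3%) and above 1 for 3 (7.32%, beside 16.6%).

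The CUMS oe-pep library, set against the same CUMS vehicle library, gave a smaller shift over the 42 genes. Their median log2 difference was -0.08, beside -0.00 over all genes, and 28 of 42 were below 0, beside 10146 of 20203. Without Cst3, Ctsd, Mertk and Itgb5, which other brain cells also make, the medians were closer, at -0.13 in oe-circ and -0.12 in oe-pep. No member was more than 2-fold higher (0 of 42, with 4.54% of all genes) and again Pf4 alone was more than 2-fold lower (1 of 42, with 4.93% of all genes). Of the same 41 members, 3 were lower by more than 20% (7.32%, beside 7.36% of genes of such depth) and 3 were higher by more than 25% (7.32%, beside 7.70%), which is close to the background in both directions. Intervals lay below 1 for 9 of the 41 (22.0%, beside 14.7%) and above 1 for 4 (9.76%, beside 14.2%).

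**Figure D1:**
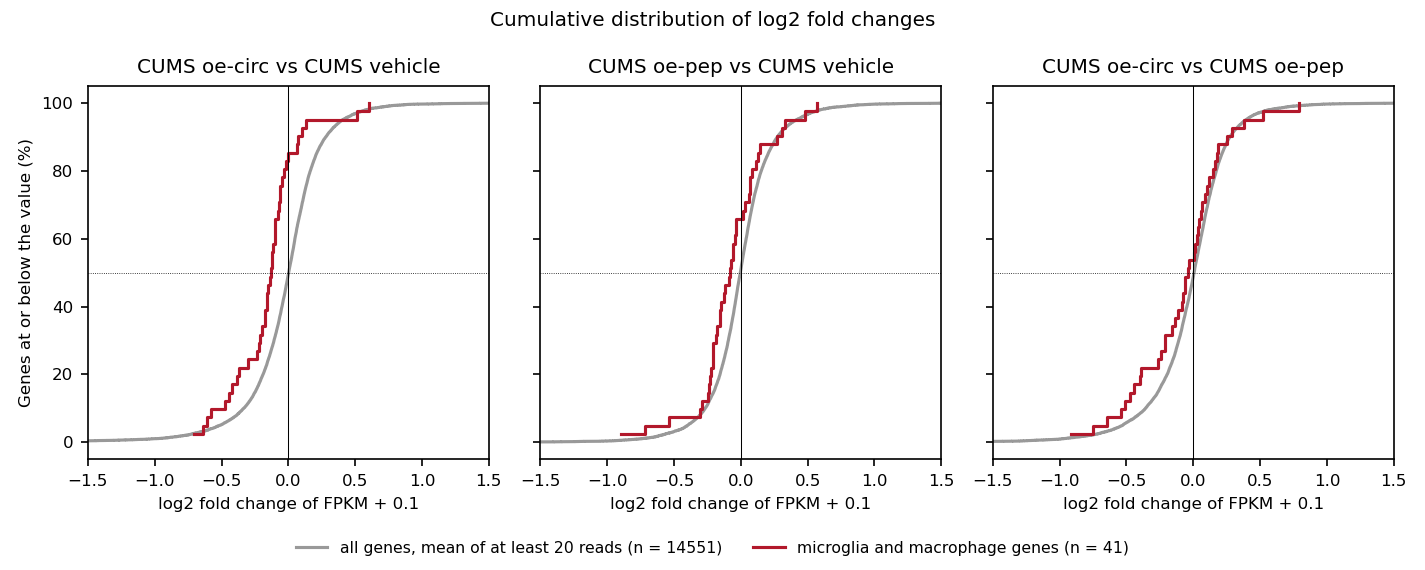
Cumulative distribution of log2 differences of FPKM + 0.1 (x axis, without unit) as the percentage of genes at or below each value (y axis), for the 41 microglia and macrophage genes and for all 14551 genes that averaged 20 reads or more, in each of the 3 comparisons. The curve of the 41 genes lies to the left of the curve of all genes over most of its course for CUMS oe-circ against CUMS vehicle, where the median of all 42 was -0.13. For CUMS oe-circ against CUMS oe-pep the median of all 42 was -0.04, and the curves are close near the middle only. There 22.0% of the 41 genes were lower by more than 20%, beside 11.7% of all genes.

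The cumulative plot shows the shift of the oe-circ library as a small displacement of many genes and not as a few large differences, since its lowest member of that depth, Cd68, reached only -0.71 on the log2 scale. Between genes, levels per length spanned from 0.245 FPKM for Ptprc to 771 FPKM for Cst3 in the vehicle library. Cst3, Ctsd, Mertk and Itgb5 are also made by neurons, astrocytes or other brain cells. Without these 4, the summed level of the other 38 was 377, 345 and 352 FPKM.

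**Figure D2:**
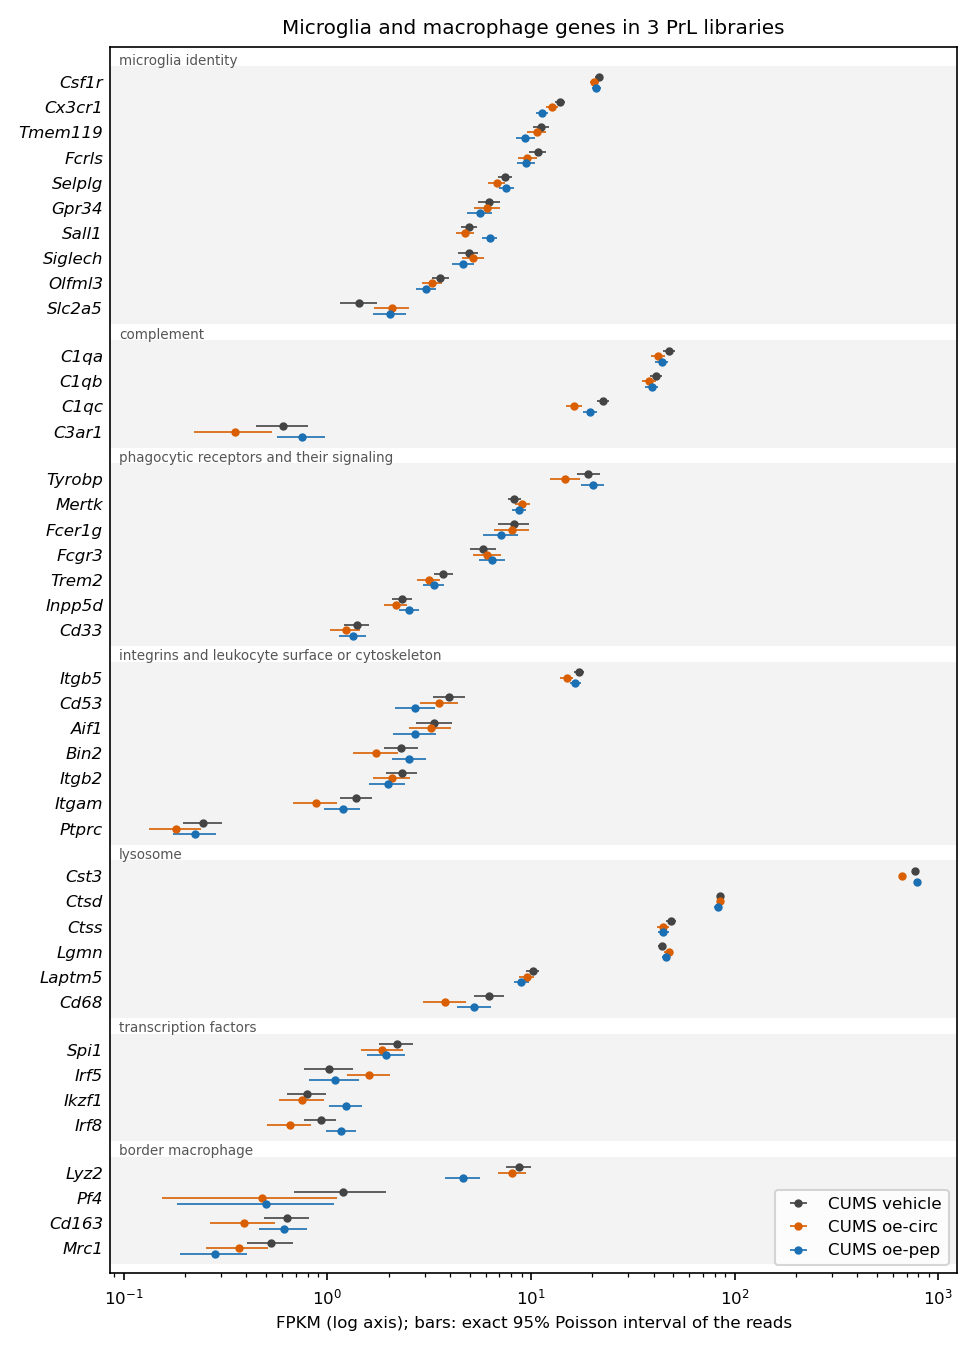
Level of each of the 42 genes in FPKM (logarithmic x axis) in each of the 3 libraries (colours), grouped by role; points are the single libraries and bars are exact 95% Poisson intervals of the reads behind each point. The 3 points of most genes lie close together, as for Csf1r at 21.5, 20.4 and 20.9 FPKM, whereas Lyz2 is lower in CUMS oe-pep, at 8.70, 8.09 and 4.63 FPKM, and C1qc differs between every pair of libraries, at 22.6, 16.2 and 19.5 FPKM.

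The genes of microglia identity were nearly level across the 3 libraries. Their summed level was 85.9, 81.6 and 80.3 FPKM, and their median log2 difference was -0.07 in oe-circ and -0.12 in oe-pep against vehicle. Csf1r, the receptor for the survival factors Csf1 and Il34, was at 21.5, 20.4 and 20.9 FPKM (1941, 1452 and 1713 reads), and both ratios to vehicle had intervals that included 1 (0.888 to 1.02 and 0.913 to 1.04). Opposite-strand genes overlap Csf1r (Hmgxb3, with 688, 623 and 648 reads) and Gpr34 (Cask), and whether the authors counted by strand is not given in the sources used here.

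Cx3cr1, the receptor for the neuronal chemokine Cx3cl1, was at 13.9, 12.7 and 11.3 FPKM, and its ratio to vehicle was 0.916 (95% counting interval 0.837 to 1.0) in oe-circ and 0.815 (0.746 to 0.892) in oe-pep. The annotated span of Cx3cr1 overlaps Gorasp1 and Csrnp1 on the same strand and Wdr48 on the opposite strand, so reads could be shared in counting. Tmem119, a membrane protein that marks microglia, was at 11.2, 10.7 and 9.39 FPKM, with ratios of 0.955 (0.831 to 1.10) and 0.842 (0.732 to 0.966). Both markers were therefore lowest in the oe-pep library, by less than 20%. Olfml3, a secreted glycoprotein of microglia, had the same order at 3.59, 3.27 and 3.04 FPKM.

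Sall1 and Slc2a5 differed the other way. Sall1, the transcription factor that maintains microglia identity, was at 4.96, 4.74 and 6.26 FPKM, and the oe-pep library was 1.26 times the vehicle library (1.12 to 1.43). Slc2a5, a fructose transporter, was at 1.43, 2.08 and 2.04 FPKM (90, 103 and 116 reads), with ratios to vehicle of 1.46 (1.09 to 1.95) in oe-circ and 1.42 (1.07 to 1.90) in oe-pep. Slc2a5 was thus lowest in the vehicle library. The remaining identity genes, Fcrls, Siglech, Gpr34 and Selplg, had intervals that included 1 in every comparison, with log2 differences from -0.18 to 0.15.

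Among the complement genes, C1qc was lower in the oe-circ library than its neighbours C1qa and C1qb. The 3 genes encode the chains of C1q, the recognition molecule of the classical pathway, and lie side by side on the minus strand of chromosome 4 in mm10, C1qb at 136880129 to 136886187, C1qc at 136889804 to 136893065 and C1qa at 136895917 to 136898803. C1qa was at 47.5, 42.1 and 43.9 FPKM (915, 637 and 764 reads) and C1qb at 41.2, 38.0 and 39.1 FPKM (830, 602 and 712 reads). Relative to vehicle, C1qa was at 0.886 (0.799 to 0.981) in oe-circ and 0.923 (0.837 to 1.02) in oe-pep. C1qb was at 0.923 (0.829 to 1.03) and 0.948 (0.856 to 1.05). Both chains were highest in the vehicle library, and the other libraries were lower by less than 20%.

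C1qc was at 22.6, 16.2 and 19.5 FPKM (807, 456 and 631 reads), which placed oe-circ at 0.719 of vehicle (0.639 to 0.807) and oe-pep at 0.864 (0.777 to 0.960). The interval of oe-circ for C1qc did not overlap that of C1qb and overlapped that of C1qa only at its edge. The FPKM ratio of C1qa to C1qc was 2.11, 2.59 and 2.25, and that of C1qb to C1qc was 1.83, 2.34 and 2.00. From vehicle to oe-circ these ratios differed by a factor of 1.23 (1.05 to 1.44) and 1.28 (1.10 to 1.5), so the balance of the chains differed between the 2 libraries by more than counting error. From vehicle to oe-pep the factors were 1.07 (0.924 to 1.23) and 1.10 (0.947 to 1.27). The ratio of C1qa to C1qb was 1.15, 1.11 and 1.12, and its intervals included 1. C3ar1, the receptor for the complement fragment C3a, was low, at 0.602, 0.351 and 0.749 FPKM (48, 22 and 54 reads), and its oe-circ ratio to vehicle was 0.583 (0.335 to 0.985).

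Of the phagocytic receptors and their signaling proteins, Tyrobp was the only member of 7 whose interval left out 1 against vehicle. Tyrobp, the adaptor that carries signals of Trem2 and other receptors, was at 19.1, 14.7 and 20.1 FPKM (236, 143 and 224 reads), and oe-circ was 0.771 of vehicle (0.622 to 0.953) while oe-pep was 1.05 times vehicle (0.870 to 1.26). Trem2, its lipid-sensing partner, was at 3.71, 3.14 and 3.33 FPKM, with ratios of 0.846 (0.711 to 1.0) and 0.897 (0.763 to 1.05). Mertk, a receptor for the uptake of dying cells and synapses, was at 8.29, 9.07 and 8.70 FPKM, with log2 differences of 0.13 in oe-circ and 0.07 in oe-pep. Tyrobp was thus lowest in oe-circ, while the Mertk values lay within counting error of each other.

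Fcer1g, the signaling chain shared by Fc receptors, was at 8.22, 8.10 and 7.10 FPKM, and the low-affinity IgG receptor Fcgr3 was at 5.82, 6.10 and 6.43 FPKM. Cd33, an inhibitory receptor for sialic acid, and Inpp5d, a lipid phosphatase that dampens receptor signals, had log2 differences between -0.17 and 0.11 against vehicle. All of these included 1 in their intervals. The median of the 7 genes was -0.10 in oe-circ and 0.07 in oe-pep.

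All 7 integrin, leukocyte surface and cytoskeleton genes were below 0 in oe-circ (beside 50.7% of all genes) and 6 of 7 in oe-pep (beside 50.2%). The medians were -0.19 and -0.21, and both comparisons share the vehicle library. Intervals lay below 1 for 2 of the 7 in oe-circ (28.6%, beside 15.3% of genes averaging 20 reads or more). In oe-pep this held for 1 (14.3%, beside 14.7%). Itgb5, an integrin subunit that other brain cells also make, was at 17.2, 15.0 and 16.5 FPKM, and oe-circ was 0.873 of vehicle (0.796 to 0.958). Itgam, the alpha chain of the complement receptor known as CD11b, was at 1.39, 0.876 and 1.19 FPKM (129, 64 and 100 reads), with a ratio of 0.631 (0.460 to 0.858) in oe-circ and 0.857 (0.653 to 1.12) in oe-pep. Its beta chain Itgb2 was at 2.32, 2.07 and 1.98 FPKM, with a ratio of 0.893 (0.677 to 1.18) in oe-circ. The gene model Gm49368 overlaps Itgam on the same strand and is nearly identical to it in sequence, and it had 0 reads in every library. Gene models with 0 reads also overlap Irf8 (Gm20388) and Ctsd (Gm49369) on the same strand. Whether reads shared by such genes were left out in counting was not tested.

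Cd53, a tetraspanin of leukocytes, was at 3.97, 3.55 and 2.71 FPKM (128, 90 and 79 reads), and oe-pep was 0.682 of vehicle (0.509 to 0.910). Aif1, which encodes the cytoskeletal protein Iba1 used to stain microglia, was at 3.35, 3.23 and 2.69 FPKM, and its oe-pep ratio of 0.803 had an interval of 0.580 to 1.11. Both were therefore lowest in oe-pep, but only Cd53 was so beyond counting error. Bin2, a membrane-shaping protein of leukocytes, was lowest in oe-circ at 2.31, 1.74 and 2.53 FPKM, and Ptprc, the leukocyte phosphatase CD45, was at 0.245, 0.180 and 0.225 FPKM, both with intervals against vehicle that included 1.

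The role group labelled lysosome, in which the protease inhibitor Cst3 was placed, was led by Cst3, the most abundant of the 42. Cst3 made up 771 of the 965 FPKM of the group in the vehicle library. The largest difference in the group was in Cd68. Cst3, the protease inhibitor cystatin C, was at 771, 666 and 788 FPKM (18071, 12268 and 16713 reads), with ratios to vehicle of 0.864 (0.844 to 0.884) in oe-circ and 1.02 (1.001 to 1.04) in oe-pep. The depth of Cst3 makes its interval narrow, and the oe-circ difference was still less than 20%. Cd68, a membrane glycoprotein of phagocyte lysosomes, was at 6.23, 3.77 and 5.27 FPKM (145, 69 and 111 reads). Its oe-circ ratio of 0.605 (0.448 to 0.812) was 1.65-fold lower than vehicle, which among the members averaging 20 reads or more was the lowest ratio after that of C3ar1. The oe-pep ratio was 0.846 (0.655 to 1.09).

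The proteases differed less. Ctsd, cathepsin D, was at 84.7, 84.6 and 82.4 FPKM, with an oe-circ ratio of 0.999 (0.951 to 1.05). Ctss, cathepsin S of antigen-presenting cells, was at 48.7, 44.6 and 44.5 FPKM, with ratios of 0.917 (0.840 to 1.0) and 0.915 (0.841 to 0.995). Lgmn, the asparaginyl endopeptidase legumain, was at 44.1, 47.4 and 46.0 FPKM, and its oe-circ ratio of 1.07 (1.004 to 1.15) was among the few above 1. Laptm5, a lysosomal membrane protein of blood-lineage cells, was at 10.2, 9.51 and 8.95 FPKM. Cd68 thus differed more between vehicle and oe-circ than any of the lysosomal enzymes did.

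**Figure D3:**
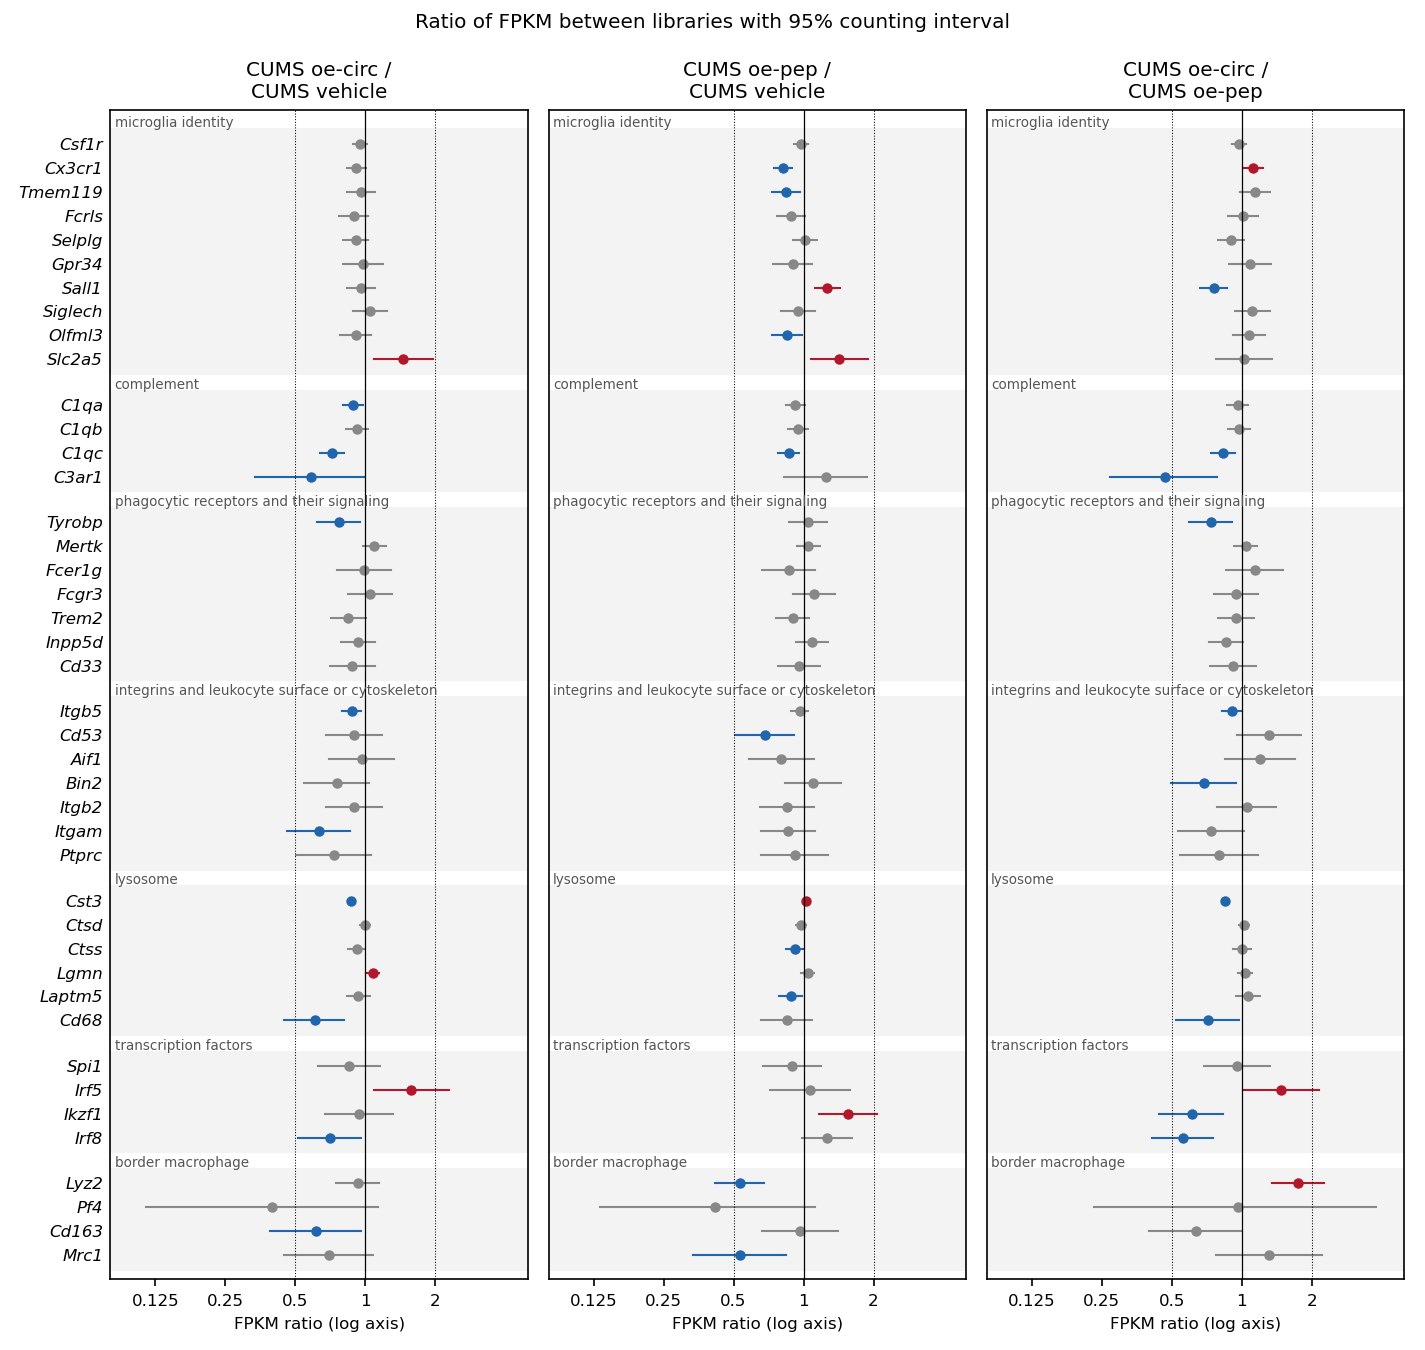
Ratio of FPKM between libraries (logarithmic x axis, dotted lines at a factor of 2 either way) for each of the 42 genes in the 3 comparisons, with 95% intervals that cover counting error only; red and blue mark intervals above and below 1. For CUMS oe-circ against CUMS vehicle 10 genes are blue and 3 red, and for CUMS oe-pep against CUMS vehicle 9 are blue and 4 red.

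The transcription factors had no common direction. Spi1, which encodes PU.1, the factor that macrophages require, was at 2.19, 1.86 and 1.95 FPKM (109, 73 and 88 reads), with ratios of 0.852 (0.624 to 1.16) and 0.892 (0.666 to 1.19). Irf8, a partner of PU.1 in myeloid cells, was at 0.927, 0.653 and 1.17 FPKM (121, 67 and 138 reads), with ratios of 0.704 (0.515 to 0.957) in oe-circ and 1.26 (0.980 to 1.62) in oe-pep. Irf8 was thus lowest in oe-circ, and Spi1 did not differ beyond counting error.

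Ikzf1, a zinc finger factor of blood-lineage cells, was at 0.795, 0.750 and 1.23 FPKM (85, 63 and 119 reads), and oe-pep was 1.55 times vehicle (1.16 to 2.07). Irf5, a factor that drives inflammatory genes in macrophages, was at 1.02, 1.61 and 1.09 FPKM (55, 68 and 53 reads), and oe-circ was 1.57 times vehicle (1.09 to 2.29), the largest ratio above 1 among the 42 in that comparison. Irf5 was highest in oe-circ and Ikzf1 in oe-pep. The gene Tnpo3 overlaps Irf5 on the opposite strand, with the same limit as for Csf1r.

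The border macrophage genes had the lowest medians of the role groups, -0.50 in oe-circ and -0.81 in oe-pep. All 4 were below 0 in each, beside 50.7% and 50.2% of all genes, the comparisons sharing the vehicle library. The summed level of the 4 genes was 11.1, 9.33 and 6.02 FPKM. Lyz2, the lysozyme of macrophages and other myeloid cells, made up most of it, at 8.70, 8.09 and 4.63 FPKM (212, 155 and 102 reads). Its oe-pep ratio to vehicle was 0.532 (0.416 to 0.676), or 1.88-fold lower, and its oe-circ ratio was 0.930 (0.751 to 1.15). The near-identical gene Lyz1 had 0 reads in every library, and whether reads shared with Lyz2 were left out in counting was not tested.

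Mrc1, the mannose receptor of perivascular and meningeal macrophages, was at 0.526, 0.367 and 0.281 FPKM (62, 34 and 30 reads), with ratios of 0.698 (0.445 to 1.08) in oe-circ and 0.535 (0.334 to 0.840) in oe-pep. Cd163, the receptor for hemoglobin complexes, was at 0.633, 0.390 and 0.612 FPKM (64, 31 and 56 reads), with ratios of 0.616 (0.388 to 0.960) and 0.967 (0.663 to 1.41). Lyz2 and Mrc1 were therefore lowest in oe-pep and Cd163 in oe-circ. Pf4, a chemokine made by platelets and border macrophages, was at 1.20, 0.477 and 0.497 FPKM. This rested on 16, 5 and 6 reads, and the intervals of its ratios of 0.397 (0.114 to 1.14) and 0.414 (0.133 to 1.11) included 1, so that the only differences from vehicle beyond 2-fold were not detectable beyond counting error at this depth.

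Direct comparison of the CUMS oe-circ and CUMS oe-pep libraries gave a median log2 difference of -0.04 over the 42 genes. More than 2-fold higher in oe-circ were 0 of 42 (4.31% of all genes) and more than 2-fold lower were 0 of 42 (6.26% of all genes). Of the 41 members that averaged 20 reads or more, 9 were lower in oe-circ by more than 20% (22.0%, beside 11.7% of genes of such depth) and 3 higher by more than 25% (7.32%, beside 7.55%), while intervals lay below 1 for 10 (24.4%, beside 15.6%) and above 1 for 3 (7.32%, beside 17.4%). The genes lowest in oe-circ relative to oe-pep were C3ar1, at a ratio of 0.469 (0.272 to 0.783), Irf8, at 0.559 (0.411 to 0.754), Ikzf1, at 0.609 (0.442 to 0.834), and Cd163, at 0.637 (0.397 to 1.01). The ratio of C3ar1 was past 2-fold on FPKM itself but at -0.91 on the log2(FPKM + 0.1) scale. Tyrobp was at 0.735 (0.592 to 0.910) and Sall1 at 0.757 (0.661 to 0.866). Higher in oe-circ were Lyz2, at 1.75 (1.35 to 2.27), Irf5, at 1.48 (1.02 to 2.16), Cd53, at 1.31 (0.959 to 1.80), and Mrc1, at 1.30 (0.775 to 2.21). The largest differences beyond counting error were thus lower values in oe-circ for C3ar1 (22 and 54 reads), Irf8 and Ikzf1. On the other side were Lyz2 and Irf5, so transcription factors lay on both sides.

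**Figure D4:**
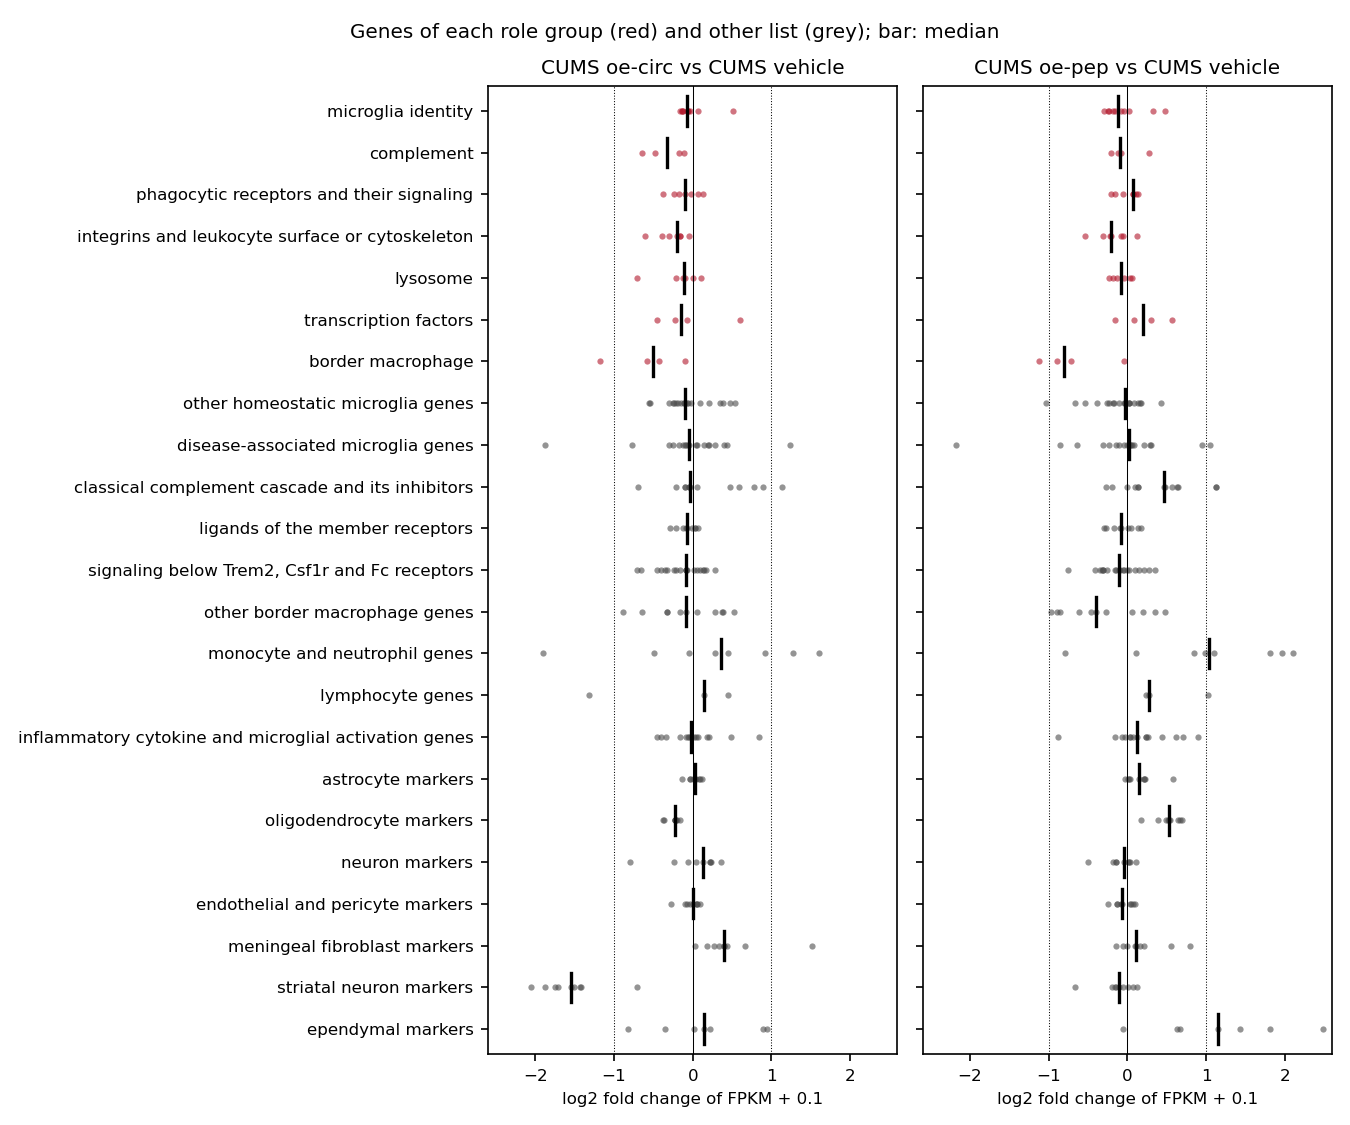
Log2 difference of FPKM + 0.1 (x axis) for each gene of the 7 role groups of the 42 genes (red) and of 16 other lists (grey), against the CUMS vehicle library; each point is a gene, the black bar is the median of the list and dotted lines mark a factor of 2. The border macrophage genes have the lowest median of the role groups in each comparison, -0.50 and -0.81, while the striatal neuron markers lie at -1.54 in CUMS oe-circ and the ependymal markers at 1.16 in CUMS oe-pep.

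Few other genes of the same cells and pathways were past 2-fold from the vehicle library, and the medians ranged from -0.10 to 0.47 over the homeostatic, disease-associated, ligand, signaling and complement cascade lists. Of 20 further homeostatic microglia genes, 0 were past 2-fold in oe-circ and 1 was lower in oe-pep, Abi3, an actin regulator, with 33, 31 and 11 reads, and their medians were -0.10 and -0.03. The matrix protein Sparc was at 57.0, 38.9 and 48.3 FPKM, a log2 difference of -0.55 in oe-circ, the lowest of the 20. Mef2c was the highest of them there, at 31.5, 45.9 and 35.7 FPKM, a log2 difference of 0.54. Which cells of the tissue the Sparc and Mef2c reads came from was not tested. In oe-circ, 4 of the 20 were higher by more than 25% (20%, beside 7.94% of genes averaging 20 reads or more). Lower by more than 20% were 2 (10%, beside 10.5%). In oe-pep these counts were 1 (5%, beside 7.70%) and 4 (20%, beside 7.36%). Of 22 genes of the disease-associated microglia state, 19 were measured above the minimum, with medians of -0.04 and 0.02 and 1 gene past 2-fold in each direction in each comparison, all averaging under 20 reads. Apoe, the lipid carrier of that state, which astrocytes also make, was at 787, 662 and 731 FPKM. The further homeostatic genes thus had a median in oe-circ of similar size to that of the 42, and the disease-associated genes one nearer to 0.

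The ligands of the member receptors, 9 of 9 measured, had medians of -0.07 and -0.08 with 0 past 2-fold. Cx3cl1, the ligand of Cx3cr1, was at 184, 192 and 172 FPKM, Gas6, the ligand of Mertk, at 32.1, 32.7 and 35.3 FPKM, and Il34, a ligand of Csf1r, at 27.9, 28.5 and 26.4 FPKM. The 20 signaling genes below Trem2, Csf1r and the Fc receptors had medians of -0.08 and -0.10, also with 0 past 2-fold. The classical complement cascade and its inhibitors, 13 of 15 measured, had medians of -0.03 and 0.47. More than 2-fold higher than vehicle were 1 of 13 in oe-circ (3.50% of all genes) and 2 of 13 in oe-pep (4.54%), and 0 were lower in either. In oe-circ this was C1ra, a protease of the C1 complex, at 41, 76 and 60 reads (log2 difference 1.14). In oe-pep these were C3, the central component of the cascade, with 10, 2 and 30 reads, and the C5a receptor C5ar1, with 6, 12 and 17 reads. C4b, the substrate of the C1 complex, was at 3.44, 2.96 and 5.42 FPKM (0.64 in oe-pep). Thus C1ra in oe-circ and C4b in oe-pep were above vehicle while C1qc was below it in each.

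Markers of related myeloid cells and of other cells at the brain borders were measured beside the border macrophage genes. Of 18 other border macrophage genes, 11 were measured above the minimum, with medians of -0.08 in oe-circ and -0.40 in oe-pep and 0 past 2-fold. Their summed level was 11.0, 11.1 and 11.0 FPKM, and 5 of the 11 were above 0 in oe-circ and 4 in oe-pep. Among those below vehicle, Stab1, a scavenger receptor, was at 1.92, 1.51 and 1.36 FPKM, and the hyaluronan receptor Lyve1 had 17, 7 and 6 reads. Monocyte and neutrophil genes, 8 of 14 measured and none with a mean of 20 reads, summed to 2.49, 4.17 and 6.71 FPKM, highest in oe-pep, where Lyz2, which these cells also make, was lowest. Meningeal fibroblast markers, 9 of 9 measured, summed to 9.56, 14.4 and 10.9 FPKM, lowest in vehicle, where all 4 border macrophage genes among the 42 were highest. Ependymal markers, 7 of 7 measured, summed to 6.52, 7.70 and 17.0 FPKM. Inflammatory cytokine and activation genes, 15 of 19 measured, had medians of -0.02 and 0.13 with 0 past 2-fold, and Tnf had 0, 2 and 0 reads and Il6 0, 1 and 1. The part of these lists in the border macrophage values was not tested.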

How the data were processed

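The authors deposited FPKM values with gene lengths for 54532 genes in 1 table. Trimming, alignment and counting tools named in the submitters' processing notes were cutadapt 2.5, HISAT2 2.1.0 and featureCounts 1.6.3, with genome build mm10. RMA and limma, which the methods give, do not describe FPKM. FPKM multiplied by gene length gave whole reads for 100% of genes within a tolerance of 0.01 reads. Libraries were grouped by the titles and vectors in the labels. Fold changes were taken on log2(FPKM + 0.1), which understates changes of low genes, over 20203 genes averaging 0.1 FPKM or more, 14551 of which averaged 20 reads or more. The study's size of 2-fold was the threshold, and no p-value was computed. Ratio intervals were exact conditional binomial (Clopper-Pearson) and level intervals exact Poisson, both at 95%, computed in Python 3.11.15 with scipy 1.17.1 and tested on simulated data. Near-identical genes were sought with minimap2 2.31 in GENCODE transcripts.

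The 42 members and all lists were chosen with earlier results of these data known. Values were printed for all complement, transcription factor and border macrophage genes, the 3 most abundant of each other role group, members past 2-fold, and the 4 largest rises and falls per comparison among genes averaging 20 reads or more. From other lists at most the 3 most abundant genes and those past 2-fold with 20 reads or more on average were named, and the remaining names were chosen after their values were seen. Alternatives were other pseudocounts, scalings, filters, thresholds and member sets.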

Additional observations from a re-analysis of the deposited data

How the results depend on the processing

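Of 105 summary values recomputed under other settings, 85 stayed within the limits set for them and 20 moved. The limit for a median did not take its sign into account. The count of genes more than 2-fold lower than vehicle, which was 1 in each of CUMS oe-circ and CUMS oe-pep, became 0 with a pseudocount of 1, with a mean FPKM of at least 1, without the border macrophage genes or with a mean of at least 20 reads, each of which removes or damps Pf4. At 1.5-fold, 4 were lower and 1 higher in oe-circ against vehicle (11.4% and 7.27% of all genes), 3 were lower in oe-pep against vehicle (9.05%), and 3 were lower and 1 higher in oe-circ against oe-pep (11.3% and 7.73%). At 20% lower and 25% higher, 10 were lower and 2 higher in oe-circ against vehicle (19.0% and 13.6%), 4 and 3 in oe-pep against vehicle (15.4% and 15.0%), and 9 and 3 in oe-circ against oe-pep (19.3% and 13.8%). Over all 42 genes the shares lower at that last size were 23.8%, 9.52% and 21.4%. These were slightly above those of all genes in the oe-circ comparisons and below in oe-pep against vehicle. The shares of all genes here include genes with few reads. Among genes averaging 20 reads or more they were 10.5%, 7.36% and 11.7%, beside 22.0%, 7.32% and 22.0% of the members. With a pseudocount of 0.01, 1 gene, C3ar1, was more than 2-fold lower in oe-circ than in oe-pep. The median over the members ranged from -0.14 to -0.11 in oe-circ and from -0.12 to -0.07 in oe-pep against vehicle, and their means were -0.18 and -0.10. In oe-circ against oe-pep the median was -0.05 to -0.04 and was 0.00 (above 0) with a mean FPKM of at least 1. Ctsd in oe-circ against vehicle and Ctss in oe-circ against oe-pep, both near 0, changed sign under some settings. Of all genes, 6.42% were more than 2-fold lower in oe-circ than in vehicle, but 2.07% of protein-coding genes and 0.757% with a pseudocount of 1. No paired analysis was possible because each group had 1 library. Depth limits C3ar1, Pf4, Mrc1, Cd163 and Irf5, which had under 70 reads in each library, and the spread between mice within a group is unknown.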
